A study of Mus musculus with 35 samples.

Results

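Mr1, Cd1d1, Slamf1, Slamf6, Sh2d1a and Fyn encode molecules by which double positive thymocytes select innate-like T cells. They were taken from the deposited count table by gene name, and the 4 genes with a row, Mr1, Slamf1, Slamf6 and Fyn, are described here out of 41096 genes in the table. Cd1d1 and Sh2d1a were not analysed here.

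Most T cells are selected in the thymus on classical MHC molecules of the epithelium. Innate-like T cells are instead selected by other thymocytes. MR1 is a class I-like protein that holds vitamin B metabolites and selects mucosal-associated invariant T cells, and CD1 family proteins hold lipids and select natural killer T cells. Double positive thymocytes also carry SLAM family receptors, which bind each other between neighbouring cells. SLAMF1 and SLAMF6 signal through the small adaptor SAP and the Src family kinase FYN, and mice without this pathway have few natural killer T cells. FYN also acts in T cell receptor signalling beside LCK.

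RNA-seq was measured in flow-sorted mouse thymocytes. Double negative (DN) thymocytes have neither CD4 nor CD8, and double positive (DP) thymocytes, their progeny, have both. There were 7 groups, each of 5 libraries. The young DN and young DP groups are wild type at an age of 10 weeks, and the aged DN and aged DP groups are wild type at 60 weeks. The genotype of the WT DN and WT DP groups, at 10 weeks, is Mettl3flox/wt; Cd4Cre, so these controls carry the Cre transgene and a single floxed allele of Mettl3, a methyltransferase that places m6A on RNA. The KO DP group is Mettl3flox/flox; Cd4Cre, also at 10 weeks. Cd4Cre is driven by the Cd4 promoter, which becomes active late in the DN stage and in DP cells. Nothing in the labels ties the replicates to separate animals. The p-values below therefore reflect spread among samples that could be technical.

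Levels are given in CPM, the read count of a gene scaled to library size with TMM factors. Library totals were 12391908 to 18820157 counts. Cd4 averaged 29.4 ± 43.9 CPM (SD, n = 5) in young DN and 1825 ± 68.1 in young DP. Mettl3, the targeted gene, was at 48.1 to 61.5 CPM in KO DP and 44.1 to 54.5 in WT DP, so the gene's total count did not separate these groups, and which exons the reads cover is not in the table. Among DN libraries, aged DN 5 and WT DN 2 had summed B cell marker levels of 15968 and 6425 CPM, against 421 to 953 in young DN. Aged DN 1 had 9292 CPM over the 22 innate-like T cell genes, against 1087 to 1235 in young DN. KO DP 2 had 12306 genes with a count, the fewest of the 35 libraries. Some of the results that rest on these libraries are also given without them. Where aged DP is compared, aged DP 1 and aged DP 5 are left out too, although aged DP 1 lay near aged DP 2, 3 and 4 in its counts over all genes.

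The 4 members lie on 2 chromosomes. In the table's own coordinates, which belong to the C57BL/6NJ strain annotation, Mr1 (MGP_C57BL6NJ_G0017013) spans chr1:165545219-165564443 on the minus strand. Slamf1 (MGP_C57BL6NJ_G0017172) spans chr1:183485106-183525398 and Slamf6 (MGP_C57BL6NJ_G0017175) spans chr1:183652514-183689653, both on the plus strand within the SLAM gene cluster. Fyn (MGP_C57BL6NJ_G0017549) spans chr10:39039603-39242400 on the plus strand. Because the 4 genes were higher in DP than in DN cells of young mice, as described next, the 250 bases upstream of each RefSeq gene start are shown from build GRCm38.p6, at chr1:155146815-155147064 (minus strand) for Mr1, chr1:171766882-171767131 for Slamf1, chr1:171917212-171917461 for Slamf6 and chr10:39369549-39369798 for Fyn. All are written 5′ to 3′ on the gene's strand, and capitals mark each E box, CANNTG, the letters read by E proteins such as HEB.
Mr1: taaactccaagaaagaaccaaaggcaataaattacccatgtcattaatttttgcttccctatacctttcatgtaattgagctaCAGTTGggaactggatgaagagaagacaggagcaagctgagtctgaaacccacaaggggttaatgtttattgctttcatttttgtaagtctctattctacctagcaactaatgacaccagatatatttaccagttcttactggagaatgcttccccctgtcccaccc
Slamf1: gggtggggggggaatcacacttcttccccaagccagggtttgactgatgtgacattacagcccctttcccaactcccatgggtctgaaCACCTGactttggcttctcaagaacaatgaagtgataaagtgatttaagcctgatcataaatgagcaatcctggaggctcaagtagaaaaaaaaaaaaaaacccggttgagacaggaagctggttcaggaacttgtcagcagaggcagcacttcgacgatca
Slamf6: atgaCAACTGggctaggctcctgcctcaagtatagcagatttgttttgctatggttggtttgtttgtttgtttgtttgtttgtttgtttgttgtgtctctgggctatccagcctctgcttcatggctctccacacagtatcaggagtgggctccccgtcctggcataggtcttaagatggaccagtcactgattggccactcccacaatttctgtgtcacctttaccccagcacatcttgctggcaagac
Fyn: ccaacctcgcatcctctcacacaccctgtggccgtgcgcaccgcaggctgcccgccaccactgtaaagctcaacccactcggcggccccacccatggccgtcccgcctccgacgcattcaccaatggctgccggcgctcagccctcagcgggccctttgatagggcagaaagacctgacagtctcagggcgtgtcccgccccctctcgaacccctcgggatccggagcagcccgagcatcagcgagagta
The windows of Mr1, Slamf1 and Slamf6 hold 1 E box each, first base at −167, −162 and −246 relative to the gene start, and that of Fyn holds 0. Of all 32851 upstream windows of this length, 66.2% hold an E box, so a match is common. The Fyn window stands apart in base composition, with 67.2% G and C and 21 CpG, against 39.6% and 0 in Mr1, 47.2% and 3 in Slamf1, and 48.4% and 1 in Slamf6. The median over all windows is 52.4% and 6 CpG. Other letters searched on both strands include AACNG (Myb), CTTTGA (Tcf7 and Lef1), TGTGGT (Runx factors) and AGGAAG (Ets factors). AACNG occurred 3 times in Mr1, 1 time in Slamf1 and 1 time in Slamf6, where it overlaps the E box, and was found in 74.2% of all windows; 1 of the Mr1 matches also overlaps the E box. CTTTGA occurred in Fyn only, at −96, and in 13.8% of all windows. AGGAAG occurred in Slamf1 only, at −49, and in 29.5% of all windows. TGTGGT occurred in none of the 4 windows and in 14.0% of all windows. These are letter matches, and no binding was measured.

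Mr1 rose from the DN to the DP stage in all 3 cohorts, 8.41-fold in young, 8.64-fold in aged and 8.88-fold in Cre-carrying mice. Its levels in the 5 young DN libraries were 24.00, 24.8, 18.3, 23.3 and 37.7 CPM, and in the 5 young DP libraries 239, 175, 226, 202 and 222 CPM. The lowest DP library lay far above the highest DN library, so the groups did not overlap. The means were 25.6 ± 7.24 and 213 ± 24.9 CPM (SD, n = 5 each), and the log2 difference was 3.07 (SE 0.15, edgeR adjusted p = 1.73e-10). In this comparison 33.9% of 13772 genes tested were called higher in DP, and all 4 members were among them. A call is an adjusted p under 0.05 in edgeR's quasi-likelihood test.

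In aged mice the Mr1 levels were 30.03, 26.9, 28.3, 23.5 and 16.8 CPM in DN and 237, 225, 241, 212 and 176 CPM in DP, again without overlap. This gave a log2 difference of 3.11 (SE 0.16, edgeR adjusted p = 3.95e-06), where 18.6% of 13596 genes were called higher. With the replicate number as a block the difference was 3.13 (edgeR adjusted p = 4.62e-05). In the Cre-carrying controls the levels were 27.6, 19.4, 37.7, 22.4 and 25.3 CPM in DN and 214, 232, 245, 224 and 241 CPM in DP. The log2 difference there was 3.15 (SE 0.15, edgeR adjusted p = 2.38e-09), where 30.2% of 13490 genes were called higher. The libraries that stood apart by their marker sums lay near the others of their groups for Mr1, although aged DN 5, WT DN 2 and aged DP 5 were the lowest and aged DN 1 the highest of theirs.

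Slamf1 encodes the self-binding receptor SLAM (CD150), which is also found on activated T and B cells. Its levels were 7.87, 7.05, 10.1, 8.15 and 14.5 CPM in young DN and 71.9, 66.3, 99.99, 86.3 and 102 CPM in young DP. Every DP library was above every DN library. The means of 9.52 ± 2.98 and 85.2 ± 16.00 CPM differed 9.05-fold, with a log2 difference of 3.18 (SE 0.18, edgeR adjusted p = 8.36e-10).

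In aged mice Slamf1 was at 3.67, 10.8, 8.85, 11.7 and 42.4 CPM in DN and 80.9, 107, 88.02, 95.96 and 82.7 CPM in DP. The groups did not overlap, but aged DN 5 stood well above the other 4 aged DN libraries. Over all 10 libraries the log2 difference came to 2.54 (SE 0.55, edgeR adjusted p = 0.00436), and it was 3.22 (edgeR adjusted p = 4.16e-09) without aged DN 1, aged DN 5, aged DP 1 and aged DP 5. With the replicate number as a block it was 3.01 (edgeR adjusted p = 0.00340). In the Cre-carrying controls Slamf1 was at 9.04, 20.3, 6.83, 8.56 and 7.30 CPM in DN and 81.9, 101, 95.98, 77.9 and 88.9 CPM in DP. WT DN 2 was the high library among the DN controls. Here the difference was 3.11 (SE 0.27, edgeR adjusted p = 4.63e-07), and 3.52 (edgeR adjusted p = 6.72e-12) without WT DN 2.

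The Slamf1 levels of the DN libraries that stood apart are shown against marker lists in the plot of DN libraries. Aged DN 5 and WT DN 2 had the highest Slamf1 levels and the highest B cell and dendritic cell marker sums of the 15 DN libraries. Their dendritic and plasmacytoid cell sums were 17149.6 and 9449 CPM, against 444 to 984 in young DN. All 12 B cell markers had counts in both libraries. The summed DP stage markers of aged DN 5 were 831 CPM, the lowest of the 15 DN libraries, and those of WT DN 2 were 3279 CPM. The part of B cells and dendritic cells in the Slamf1 level was not tested. In bulk samples fewer cells of a type and less RNA per cell cannot be told apart.

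**Figure D1:**
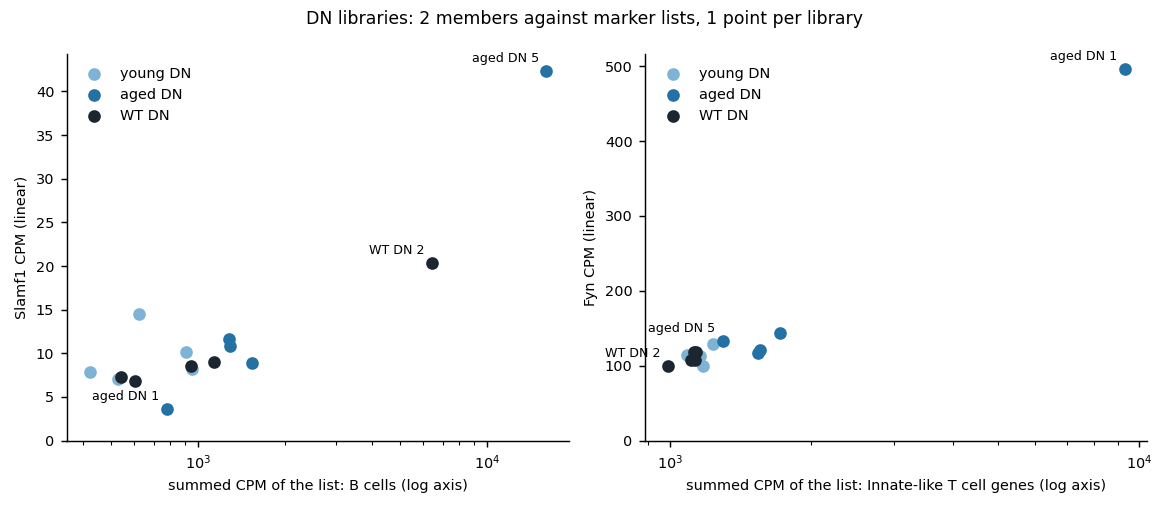
CPM of Slamf1 against the summed CPM of 12 B cell markers (left) and CPM of Fyn against the summed CPM of 22 innate-like T cell genes (right), with 1 point for each of the 15 DN libraries and a log x axis. Aged DN 5 and WT DN 2 lie at the upper right for Slamf1, and aged DN 1 lies alone at the upper right for Fyn.

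Slamf6 encodes Ly108, the other self-binding receptor of the pathway, and it rose 2.09-fold in young mice. It was at 114, 110.4, 109, 114 and 121 CPM in young DN and 226, 233, 229, 218 and 263 CPM in young DP. The groups were far apart relative to their spread and did not overlap. The means were 114 ± 4.61 and 234 ± 17.3 CPM, and the log2 difference was 1.06 (SE 0.06, edgeR adjusted p = 7.89e-10).

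In the Cre-carrying controls Slamf6 was at 136, 135, 135, 127 and 112 CPM in DN and 260.5, 259, 287, 229.7 and 217 CPM in DP, again without overlap and with a log2 difference of 0.98 (SE 0.10, edgeR adjusted p = 1.80e-06). In aged mice the levels were 33.8, 146, 113, 128 and 226 CPM in DN and 214, 268, 236, 229 and 242 CPM in DP. Aged DN 1 was far below and aged DN 5 far above the other aged DN libraries, and aged DN 5 reached into the DP range. The log2 difference of 0.87 (SE 0.37, edgeR adjusted p = 0.0843) missed the threshold. It passed without aged DN 1 or without aged DN 5, with a lowest adjusted p of 0.0172, and it was 0.93 (edgeR adjusted p = 1.50e-05) without the 4 aged libraries that stood apart. With the replicate number as a block it was 1.08 (edgeR adjusted p = 0.0414). Gm37065, which overlaps Slamf6 on the opposite strand, averaged 13.5 ± 2.76 CPM (SD, n = 5) in young DN and 42.9 ± 4.55 in young DP, and without a stated strand setting its reads and those of Slamf6 cannot be told apart.

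Fyn had the smallest DN to DP difference of the 4. It was at 114, 112, 113, 99.4 and 129 CPM in young DN and 203, 172, 181, 176 and 187 CPM in young DP. The 2 groups did not overlap. The difference was 0.72 (SE 0.07, edgeR adjusted p = 3.52e-07) on the log2 scale, from 113 ± 10.6 to 184 ± 12.02 CPM.

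In the Cre-carrying controls Fyn was at 118, 99.1, 119, 108 and 108 CPM in DN and 155, 156, 165, 173 and 161 CPM in DP. These groups also did not overlap, and the log2 difference was 0.58 (SE 0.08, edgeR adjusted p = 2.20e-05). In aged mice Fyn was at 497, 121, 144, 117 and 133 CPM in DN and 179, 158, 148, 147 and 158 CPM in DP. Aged DN 1 held over 3 times the Fyn level of any other aged DN library, and the other 4 aged DN libraries lay below every aged DP library. The log2 difference over all 10 aged libraries was −0.36 (SE 0.39, edgeR adjusted p = 0.480), and without aged DN 1 it turned to 0.29 (edgeR adjusted p = 0.0293). With the replicate number as a block it was −0.08 (edgeR adjusted p = 0.831). Aged DN 1 also had the highest summed innate-like T cell genes and the highest gamma delta T cell marker sum, 7081 CPM against 459 to 531 in young DN, and the part of such cells in its Fyn level was not tested.

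**Figure D2:**
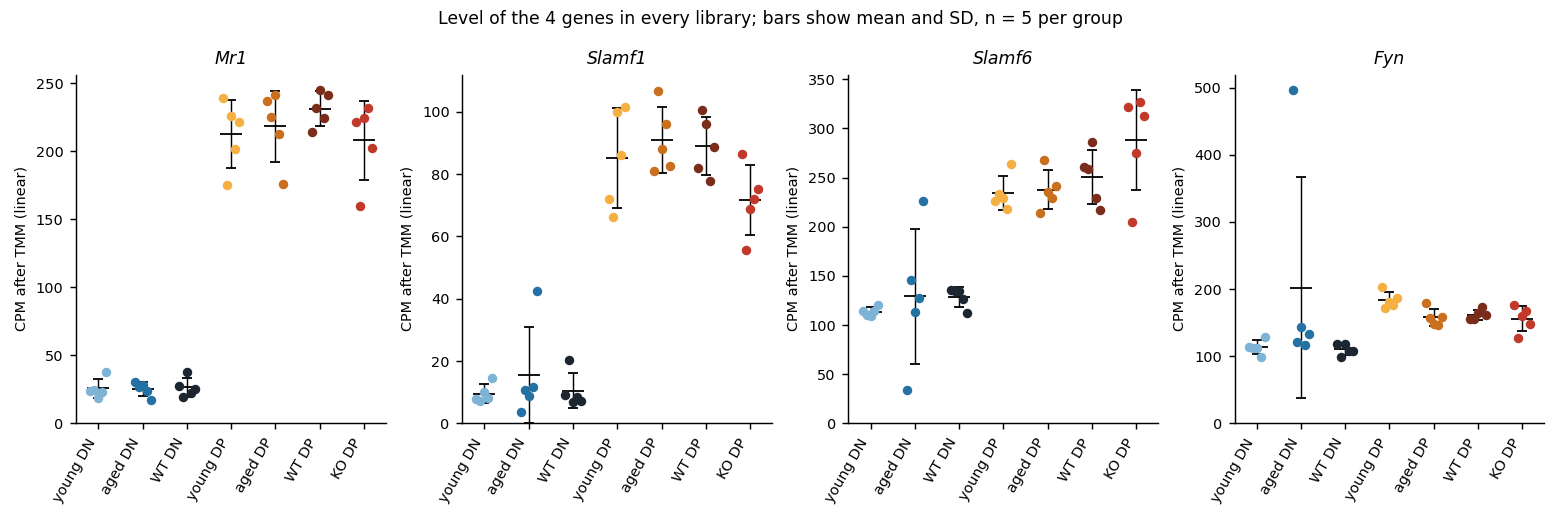
CPM of Mr1, Slamf1, Slamf6 and Fyn in each of the 35 libraries on linear axes, with the mean and SD of each group of 5. Mr1 and Slamf1 separate all DN from all DP libraries, while aged DN 5 for Slamf6 and aged DN 1 for Fyn reach or pass the DP range.

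Ordered by mean level, the 4 DP groups stood above the 3 DN groups for Mr1, Slamf1 and Slamf6. For Mr1 the order was WT DP (231 ± 12.6 CPM), aged DP (218 ± 26.2), young DP (213 ± 24.9), KO DP (208 ± 29.1), WT DN (26.5 ± 6.99), young DN (25.6 ± 7.24) and aged DN (25.1 ± 5.22). For Slamf1 it was aged DP (90.8 ± 10.6 CPM), WT DP (89.03 ± 9.42), young DP (85.2 ± 16.00), KO DP (71.6 ± 11.2), aged DN (15.5 ± 15.4), WT DN (10.4 ± 5.62) and young DN (9.52 ± 2.98). For both genes the only neighbours in the order whose ranges did not overlap were KO DP and the DN group below it. For Slamf6 the order was KO DP (288 ± 51.2 CPM), WT DP (251 ± 27.5), aged DP (238 ± 19.7), young DP (234 ± 17.3), aged DN (129 ± 68.9), WT DN (129 ± 10.2) and young DN (114 ± 4.61), and every pair of neighbours overlapped. For Fyn the order was aged DN (202 ± 165 CPM), young DP (184 ± 12.02), WT DP (162 ± 7.38), aged DP (158 ± 13.00), KO DP (156 ± 18.8), young DN (113 ± 10.6) and WT DN (110.4 ± 8.26), and again every pair of neighbours overlapped.

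Per kilobase of gene length as the table gives it, the levels in young DP were 41.7 ± 2.72 CPM per kb for Fyn, 35.5 ± 4.16 for Mr1, 21.6 ± 1.60 for Slamf6 and 13.9 ± 2.60 for Slamf1 (SD, n = 5). In young DN they were 25.7 ± 2.41 for Fyn, 10.5 ± 0.426 for Slamf6, 4.28 ± 1.21 for Mr1 and 1.55 ± 0.484 for Slamf1. On this scale Mr1 thus stood below Slamf6 in young DN and above it in young DP.

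The size of the DN to DP difference was next compared between cohorts by interaction terms. Between aged and young mice the log2 difference of differences was 0.04 (SE 0.23, edgeR adjusted p = 0.936) for Mr1, −0.63 (SE 0.58, edgeR adjusted p = 0.566) for Slamf1, −0.19 (SE 0.39, edgeR adjusted p = 0.818) for Slamf6 and −1.08 (SE 0.42, edgeR adjusted p = 0.290) for Fyn. No member was called by edgeR or DESeq2, 1 had an unadjusted p under 0.05, and 0.00679% of 14722 genes were called. Without the aged libraries that stood apart the Fyn value moved to −0.47 (edgeR adjusted p = 0.0856) and the Slamf1 value to 0.04 (0.992). Between the Cre-carrying and young wild type mice the values were 0.08 for Mr1, −0.06 for Slamf1, −0.08 for Slamf6 and −0.14 for Fyn, with edgeR adjusted p from 0.515 to 0.942. No member was called by edgeR or DESeq2 and none had an unadjusted p under 0.05, and 0.682% of 14655 genes were called.

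**Figure D3:**
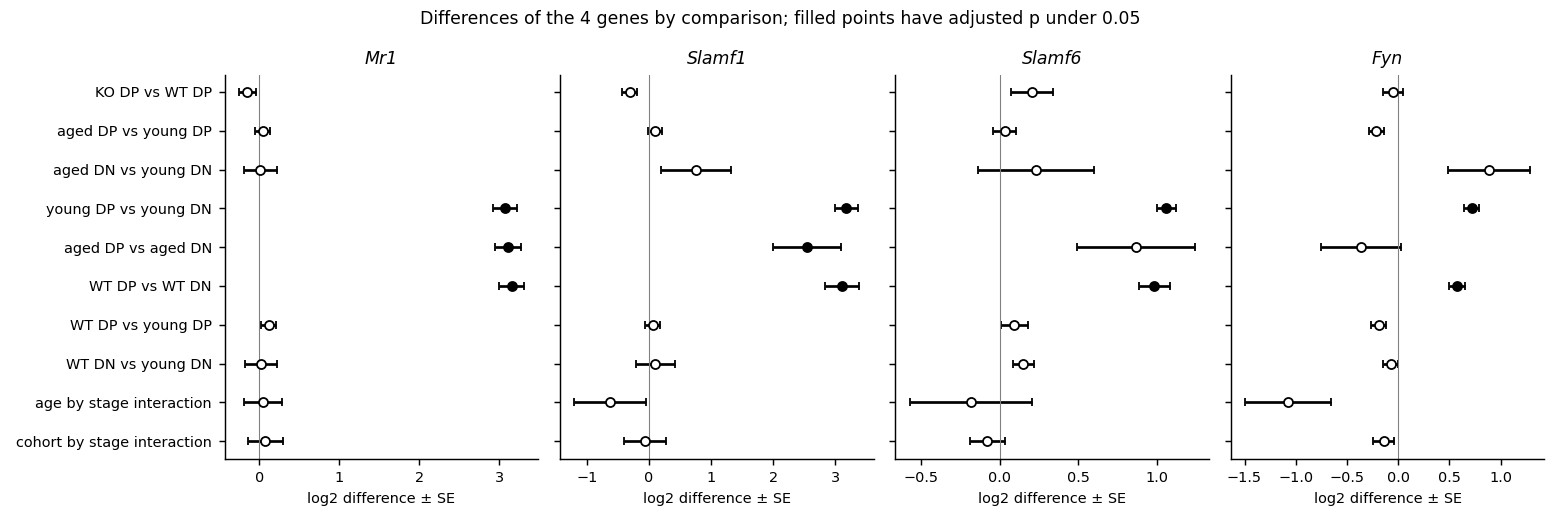
Log2 difference with its SE for the 4 genes in the 10 comparisons, with filled points for an edgeR adjusted p under 0.05. The filled points all lie in the DN to DP comparisons, 4 in young mice, 4 in the Cre-carrying controls and 2 in aged mice. The fits shown do not use the replicate number as a block, with which Slamf6 was also called in aged mice.

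Loss of the second Mettl3 allele was the question of the KO DP against WT DP comparison, and none of the 4 members passed the test there. Mr1 was at 221, 159.5, 224, 232 and 202 CPM in KO DP against 214, 232, 245, 224 and 241 in WT DP. KO DP 2 was the low library, and the groups overlapped. Their log2 difference was −0.15 (SE 0.11, edgeR adjusted p = 0.542), with a 95% interval of −0.36 to 0.06, and −0.08 (edgeR adjusted p = 0.693) without KO DP 2.

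Slamf1 was at 86.5, 55.6, 68.7, 72.1 and 75.1 CPM in KO DP, with only KO DP 1 inside the WT DP range. Its log2 difference was −0.31 (SE 0.13, edgeR adjusted p = 0.281), with an unadjusted p of 0.0269 and a 95% interval of −0.56 to −0.07. Without KO DP 2, its lowest library, the difference was −0.24 (edgeR adjusted p = 0.255). Slamf6 was at 322, 204, 275, 327 and 313 CPM in KO DP, where 3 libraries lay above every WT DP library and KO DP 2 below all of them. Its log2 difference was 0.20 (SE 0.13, edgeR adjusted p = 0.496), with a 95% interval of −0.05 to 0.46, and 0.30 (edgeR adjusted p = 0.126) without KO DP 2. Fyn was at 176, 128, 159, 168 and 148 CPM in KO DP and its log2 difference was −0.05 (SE 0.10, edgeR adjusted p = 0.842), with a 95% interval of −0.24 to 0.14. KO DP 2 was the lowest of its group for all 4 members. No member was called by edgeR or DESeq2, 1 had an unadjusted p under 0.05, and 1.59% of 13233 genes were called.

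Age gave no call among the members either. In DP cells, where 0.942% of 13059 genes were called, Fyn was the member with the lowest p: aged DP lay between 147 and 179 CPM and young DP between 172 and 203 CPM, with a small overlap. Its log2 difference was −0.21 (SE 0.07, edgeR adjusted p = 0.205), an unadjusted p of 0.00813, and a 95% interval of −0.35 to −0.07. The log2 differences of Mr1, Slamf1 and Slamf6 were 0.04, 0.10 and 0.03, with 95% intervals of −0.14 to 0.22, −0.13 to 0.32 and −0.11 to 0.17.

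In DN cells, where 0.267% of 13873 genes were called, the log2 difference between aged and young mice was 0.01 (SE 0.21, edgeR adjusted p = 0.972) for Mr1, 0.75 (SE 0.56, edgeR adjusted p = 0.392) for Slamf1, 0.23 (SE 0.37, edgeR adjusted p = 0.692) for Slamf6 and 0.88 (SE 0.40, edgeR adjusted p = 0.230) for Fyn. Without aged DN 5 alone the Slamf1 and Slamf6 differences were −0.10 and −0.10. Without aged DN 1 and aged DN 5 the log2 difference was 0.18 (edgeR adjusted p = 0.285) for Fyn, 0.15 (0.795) for Slamf1 and 0.19 (0.207) for Slamf6. In a single fit over all 35 libraries Fyn passed the threshold (log2 0.84, edgeR adjusted p = 0.0161). No member was called by edgeR's fit of the 2 groups or by DESeq2, which gave no adjusted p for Fyn, and none had an unadjusted p under 0.05.

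The controls of the knockout were also compared with young wild type mice of the same age, a comparison in which genotype and cohort cannot be told apart. In DP cells, where 0.589% of 13083 genes were called, the log2 differences were 0.11 for Mr1, 0.06 for Slamf1, 0.09 for Slamf6 and −0.19 for Fyn, with edgeR adjusted p from 0.202 to 0.851. In DN cells 25.1% of 13702 genes were called and none of the 4 members was. There the log2 differences were 0.02 for Mr1, 0.10 for Slamf1, 0.15 for Slamf6 and −0.07 for Fyn, with edgeR adjusted p from 0.127 to 0.961. The Slamf6 value passed without WT DN 5 (edgeR adjusted p = 0.0300). DESeq2 called no member in either comparison, and 1 member in DP and 0 in DN had an unadjusted p under 0.05.

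Genes with the most similar pattern were sought over the 7 group means of log2 CPM, each centred on its own mean, as the smallest root mean square difference among 11879 genes. Mr1 and Slamf1 were each other's nearest gene, at a difference of 0.12 log2 units. The next for both were Ptms, which encodes parathymosin, and Pvr, which encodes the adhesion receptor CD155. Pvr averaged 18.7 CPM in young DN and 168 CPM in young DP, and Ptms 44.2 and 421 CPM.

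For Slamf6 the nearest genes were Fam117a (0.033), Dok2 (0.058), an adaptor that restrains Ras signalling, and Pbx2 (0.064), a homeodomain factor. Fam117a averaged 79.6 CPM in young DN, 161 in young DP and 191 in KO DP. For Fyn they were D17H6S53E (0.051), Zfp952 (0.054) and Otud7b (0.060), a deubiquitinase. In these genes too aged DN stood above the other DN groups. Otud7b averaged 79.3 ± 33.26 CPM (SD, n = 5) in aged DN against 49.2 ± 2.996 in young DN, and the aged DN means include the libraries that stood apart. With 7 group means, many of which fall into a DN and a DP level, such likeness is a description.

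**Figure D4:**
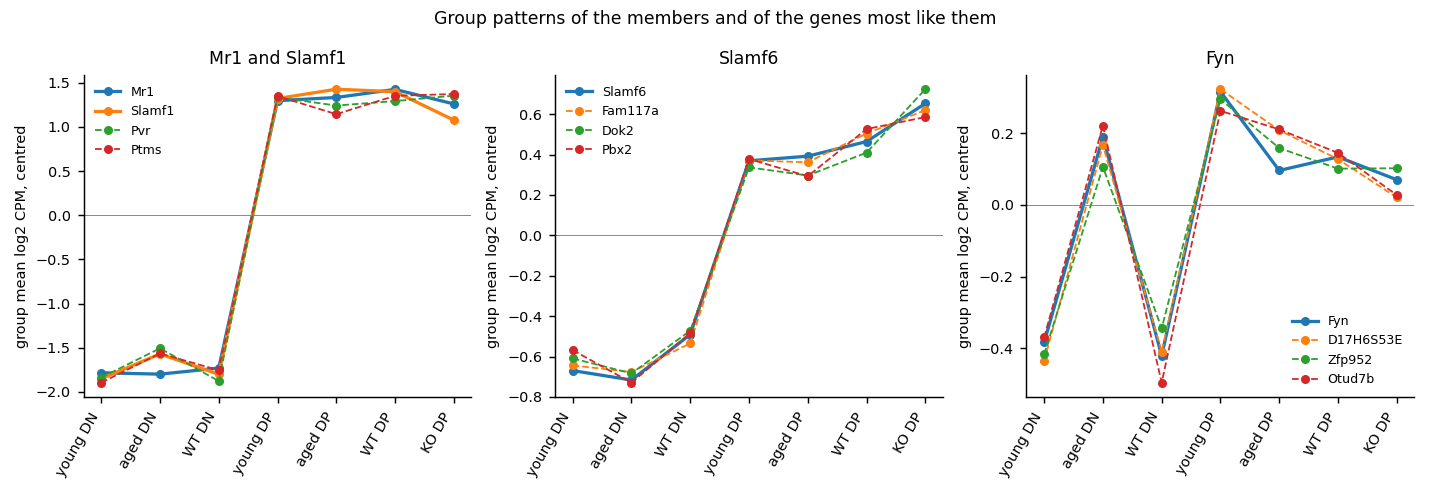
Group means of log2 CPM, centred on each gene's mean over the 7 groups, for the members (solid) and the genes most like them (dashed). Mr1 and Slamf1 follow the same course with Pvr and Ptms, Slamf6 and its neighbours are low in the 3 DN groups and highest in KO DP, and Fyn has a high value in aged DN.

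Slamf1 and Slamf6 belong to a cluster of SLAM family genes whose members did not move together between DN and DP. In young mice 7 of the 9 family genes were tested, 4 rose and 3 fell, with a median log2 difference of 0.42 against −0.01 over all genes, of which 33.9% were called higher and 36.5% lower in DP. Beside Slamf1 and Slamf6, Cd84, a self-binding receptor, rose by 1.40 (SE 0.12, edgeR adjusted p = 7.70e-08) and Ly9, another self-binding receptor, by 0.42 (SE 0.07, edgeR adjusted p = 1.33e-04). Cd48, which encodes the ligand of CD244, differed by −0.84 (SE 0.10, edgeR adjusted p = 2.60e-06). Cd244, the receptor for CD48 on natural killer cells, differed by −4.95 (SE 0.39, edgeR adjusted p = 2.32e-08) and Slamf7 by −3.60 (SE 0.45, edgeR adjusted p = 4.62e-06), from 8.53 ± 2.80 and 2.85 ± 0.707 CPM in young DN. Along chromosome 1 the order is Cd244, Ly9, Slamf7, Cd48, Slamf1, Cd84 and Slamf6. The 3 genes at the Slamf1 and Slamf6 end were those with the larger rises, and Slamf1 and Cd48, which lie next to each other, went in opposite directions. Cd244 and Ly9 overlap on opposite strands, and Ly9 held 2463% of the counts of Cd244, so the Cd244 values are uncertain without a stated strand setting.

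The same receptors were followed in the other cohorts. In the Cre-carrying controls Cd84 was at 1.58 (2.45e-06), Cd48 at −1.09 (5.09e-05) and Ly9 at −0.26 (0.115), each the log2 difference with its edgeR adjusted p. In aged mice Cd48 was at −0.94 (0.00983), Ly9 at −0.61 (0.101) and Cd84 at 0.34 (0.507). Cd84 was at 121, 29.9, 31.4, 28.5 and 59.9 CPM in aged DN, with aged DN 1 above every aged DP library. Without aged DN 1 its difference was 0.87 (edgeR adjusted p = 0.0121), and without the 4 aged libraries that stood apart it was 1.18 (edgeR adjusted p = 3.70e-06). With the replicate number as a block the aged Ly9 value was −0.52 (edgeR adjusted p = 0.0430). The Ly9 step differed between the Cre-carrying and young mice by −0.68 (SE 0.16, edgeR adjusted p = 0.0490), a call that was lost in 13 of 20 fits that left out 1 library.

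**Figure D5:**
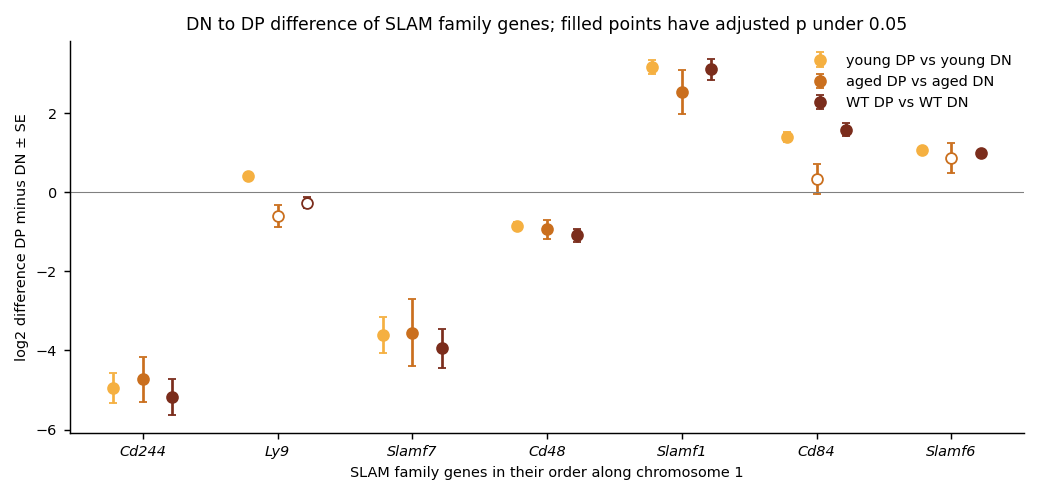
Log2 difference between DP and DN with its SE for the 7 SLAM family genes tested, in their order along chromosome 1, in young, aged and Cre-carrying mice, with filled points for an edgeR adjusted p under 0.05. Cd244, Slamf7 and Cd48 are below 0 in all 3 cohorts, and Slamf1 is highest.

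Of the adaptors related to SAP, Sh2d1b1 and Sh2d1b2 did not pass the filter on low counts in any comparison, at up to 3.04 CPM summed in any library. Among 8 Src kinases and regulators tested in young mice, 4 rose from DN to DP and 1 fell, with a median log2 difference of 0.41. Over all genes 33.9% were called higher and 36.5% lower in DP. Lck, the kinase that opens T cell receptor signalling, rose by 1.11 (SE 0.07, edgeR adjusted p = 2.76e-09) and Ptprc, the phosphatase CD45 that activates LCK and FYN, by 1.17 (SE 0.06, edgeR adjusted p = 1.56e-10). Csk, which restrains both kinases, fell by 0.14 (SE 0.06, edgeR adjusted p = 0.0399), a call lost in 7 of 10 fits that left out 1 library. Of 11 genes of signalling downstream of SLAM, SAP and FYN, 7 rose and 1 fell. Prkcq, which encodes protein kinase C theta, differed by 1.21 (SE 0.06, edgeR adjusted p = 2.16e-10), Egr1, an early target of receptor signalling, by 1.84 (SE 0.14, edgeR adjusted p = 1.33e-08) and Nfkb1 by −0.49 (SE 0.06, edgeR adjusted p = 3.04e-06). The median over the 11 was 0.74.

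Of the 5 tested genes for class I-like molecules and their light chain, Mr1 rose and 3 fell, with a median of −0.48. Of all genes tested in young mice, 33.9% were called higher and 36.5% lower in DP. B2m, which encodes the light chain that MR1 needs to reach the surface, went from 563 ± 43.7 to 165 ± 14.1 CPM, a log2 difference of −1.75 (SE 0.08, edgeR adjusted p = 4.73e-11). Its difference was −1.78 (SE 0.36, edgeR adjusted p = 0.00301) in aged mice and −2.20 (SE 0.15, edgeR adjusted p = 6.58e-08) in the Cre-carrying controls. Both values are from fits without the replicate number as a block. Fcgrt, the neonatal Fc receptor, differed by −1.76 (SE 0.50, edgeR adjusted p = 0.00534) from 1.51 ± 0.653 CPM in DN. Of 7 MR1 and class I chaperones, 2 rose and 4 fell, with a median of −0.38. Tapbpl, which encodes the peptide editor TAPBPR, was at 1.22 (SE 0.08, edgeR adjusted p = 4.11e-09) and Tap2, a peptide transporter subunit, at 0.38 (SE 0.06, edgeR adjusted p = 3.49e-05). The folding chaperones Calr and Canx were at −0.95 (SE 0.06, edgeR adjusted p = 2.21e-09) and −0.999 (SE 0.07, edgeR adjusted p = 6.90e-09). Tapbpl overlaps Vamp1 on the opposite strand, which held 511% of its counts, so its value is uncertain.

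Of 15 genes of CD1d lipid loading and trafficking, 4 rose and 5 fell in young mice, with a median of 0.02. These counts stood beside 33.9% called higher and 36.5% called lower over all genes. Ctsl, a lysosomal protease needed for natural killer T cell selection in mice, differed by 2.15 (SE 0.08, edgeR adjusted p = 7.60e-12) and Ap3d1, a sorting adaptor subunit, by 0.94 (SE 0.05, edgeR adjusted p = 6.38e-10). Gm2a, a lipid transfer protein, differed by −2.11 (SE 0.11, edgeR adjusted p = 2.46e-10) and Cd74, the invariant chain, by −4.47 (SE 0.40, edgeR adjusted p = 1.17e-07). Of 10 factors that DP cells need to give rise to innate-like T cells, 9 rose and 1 fell, with a median of 0.67. Bcl2l1, which encodes the survival protein BCL-XL, differed by 2.99 (SE 0.13, edgeR adjusted p = 4.71e-11) and Runx1, a transcription factor, by −0.68 (SE 0.08, edgeR adjusted p = 1.18e-06).

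Of 21 innate-like T cell genes tested in young mice, 1 rose and 18 fell from DN to DP, with a median of −4.68, while 33.9% of all genes were called higher and 36.5% lower. Il2rb, a receptor chain for interleukin 15, differed by −4.99 (SE 0.17, edgeR adjusted p = 5.72e-12) and Sox13, a factor of gamma delta T cells, by −7.07 (SE 0.25, edgeR adjusted p = 6.07e-12). Zbtb16, the defining factor PLZF of innate-like T cells, went from 6.19 ± 1.49 CPM in young DN to 0.164 ± 0.171 in young DP, with 0 counts in 2 of the 5 DP libraries. Natural killer cell markers summed to 240.0 to 275 CPM in young DN and 23.3 to 40.96 in young DP, and neutrophil markers to 277 to 1014 and 0.777 to 3.06 CPM. The part of other cell types in the DN levels was not tested.

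Over the same 9 lists together, 31 genes rose and 36 fell of 83 tested in young mice, 37.3% and 43.4% against 33.9% and 36.5% over all genes. In the Cre-carrying controls 28 rose and 33 fell of 80, 35% and 41.2% against 30.2% and 33.7% over all genes. In aged mice 15 rose and 33 fell of 85 without the replicate number as a block, with 18.6% of all genes called higher and 24.6% lower. Without the 4 aged libraries that stood apart 27 rose and 42 fell of 85, while calls over all genes went from 5870 to 8481. Of 21 innate-like T cell genes tested in aged mice 15 fell, and without the libraries that stood apart 19 fell and 1 rose. Of the 10 DP factors 6 rose and 1 fell in aged mice and 7 rose and 1 fell in the Cre-carrying controls.

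In KO DP against WT DP, 76 genes of these 9 lists were tested, 7 were higher and 0 lower, 9.21% against 1.59% over all genes. None of 6 SLAM family genes, 8 Src kinases and regulators or 11 downstream genes was called by edgeR, while 3, 1 and 2 had an unadjusted p under 0.05 and DESeq2 called 1, 0 and 0. None of 7 chaperones or 10 DP factors was called by edgeR either, with 4 and 1 at an unadjusted p under 0.05 and 2 and 0 called by DESeq2. The log2 differences were 0.29 for Cd48, 0.21 for Ly9, −0.05 for Cd84 and 0.11 for Lck, with edgeR adjusted p from 0.329 to 0.932. B2m was higher, 349 ± 75.7 against 183 ± 37.4 CPM, by 0.94 (SE 0.17, edgeR adjusted p = 0.0118), and the call was lost without WT DP 5 (0.0527). Cd74 was higher by 3.36 (SE 0.32, edgeR adjusted p = 2.15e-04) and Ctss, a protease of antigen-presenting cells, by 2.77 (SE 0.39, edgeR adjusted p = 0.00260). Of 16 innate-like T cell genes 4 were higher, among them Blk, a Src kinase of B and gamma delta T cells, at 2.48 (SE 0.40, edgeR adjusted p = 0.00611) from 1.17 ± 0.497 CPM in WT DP. Ccr6, a chemokine receptor of B cells and some innate-like T cells, was at 1.73 to 6.50 CPM in KO DP and at 0 to 0.203 CPM, at most 3 counts, in WT DP (edgeR adjusted p = 0.00237). Without KO DP 2, 534 of all genes were called, against 211 with it. In that fit 11 of the 76 genes were higher, among them 1 SLAM family gene, 6 innate-like T cell genes and 1 chaperone, Tap1. Tap1, a peptide transporter subunit, is named here after its values were seen (log2 difference 0.46, edgeR adjusted p = 0.0368). The 12 B cell markers summed to 957 to 1149.8 CPM in KO DP and 601 to 751 in WT DP with 11 of 12 called higher, and neutrophil markers to 14.4 to 46.4 and 1.72 to 8.73 CPM. Natural killer cell markers summed to 56.7 to 84.5 and 23.01 to 42.99 CPM and macrophage markers to 25.5 to 85.1 and 16.4 to 23.1. Markers of selection and single positive cells summed to 902 to 1471 CPM in KO DP and 652 to 725 in WT DP, with 6 of 14 called higher, and DP stage markers to 11567 to 15027 and 16574 to 18436, with 0 of 10 called by edgeR. None of these sums overlapped between the groups. The sums of the other marker lists did overlap: dendritic and plasmacytoid cells (1038 to 1667 CPM in KO DP and 1083 to 1242 in WT DP), gamma delta T cells (876 to 1284 and 956 to 1016), DN stage (477 to 1066 and 388 to 607) and stress (416 to 778 and 442 to 634). Single genes of these lists were still called higher, 4 of 7 tested for dendritic and plasmacytoid cells and 4 of 10 for the DN stage. For gamma delta T cells it was 1 of 4 and for stress 0 of 8. In a single fit over all 35 libraries Cd74 (0.0737), Ctss (0.0574) and Blk (0.103) had adjusted p above the threshold. The marker list of dendritic cells includes Cd74 itself. The part of these cells in the differences was not tested.

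Between aged and young DP cells 74 genes of the lists were tested, 2 were higher and 0 lower, against 0.942% called over all genes. These were Cd74, by 3.70 (SE 0.74, edgeR adjusted p = 0.0247), and Blk, by 4.37 (SE 0.78, edgeR adjusted p = 0.0122). B cell marker sums were 759.5 to 2434 CPM in aged DP, highest in aged DP 5, and 468 to 649.5 in young DP, without overlap. Of 10 B cell markers tested 4 were called higher. Of 8 dendritic and plasmacytoid markers, which include Cd74, 5 were called higher, although their sums overlapped. The part of such cells was not tested. The Cd74 call was lost without any 1 of the 5 young DP libraries, with an adjusted p of up to 0.0930. Without aged DP 1 and aged DP 5 Cd74 was at 1.59 (8.54e-05) and Blk at 2.62 (0.0608). B2m was at 0.91 (SE 0.24, edgeR adjusted p = 0.0933), and at 0.42 (0.0267) without those libraries.

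Between aged and young DN cells 85 genes of the lists were tested, 2 were higher and 0 lower, 2.35% against 0.267% over all genes. Klrk1, which encodes the activating receptor NKG2D, went from 14.4 ± 2.32 to 48.1 ± 11.3 CPM, a log2 difference of 1.78 (SE 0.19, edgeR adjusted p = 0.00785). Cxcr6, a chemokine receptor of innate-like T cells, was higher by 3.13 (SE 0.52, edgeR adjusted p = 0.0492), a call lost in 7 of 10 fits that left out 1 library, and it overlaps Fyco1 on the opposite strand, which held 473% of its counts. Ly9, Cd84 and B2m were at 0.97, 1.17 and 0.96 with edgeR adjusted p of 0.141, 0.160 and 0.114. Without aged DN 1 and aged DN 5 they were at 0.40 (0.0191), 0.28 (0.0832) and 0.52 (0.00138). In that fit 738 of all genes were called, against 37 with these libraries, and over the 9 lists 20 genes of 85 were higher and 2 lower. The higher ones include 11 innate-like T cell genes, 3 chaperones, 2 SLAM family genes, 2 class I-like genes and 2 downstream genes. Markers of selection and single positive cells summed to 2198 to 8477 CPM in aged DN and 1221 to 1597 in young DN, DN stage markers to 1404 to 2912 and 3177 to 3679, and neutrophil markers to 6.36 to 87.9 and 277 to 1014, each without overlap. Gamma delta T cell markers, at 567 to 7081 and 459 to 531 CPM, did not overlap either. The sums of B cell, dendritic cell, macrophage, natural killer cell, DP stage and stress markers did overlap. The part of such cells was not tested.

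Although Slamf1 and Slamf6 did not pass the test between WT DN and young DN cells, 4 of the 7 SLAM family genes did. Over the 9 lists 13 of 83 genes were higher and 9 lower, 26.5% in all, near the 25.1% called over all genes, and of 21 innate-like T cell genes 7 were higher and 3 lower. Ly9 was higher by 0.55 (SE 0.14, edgeR adjusted p = 0.0178), Slamf7 by 0.91 (SE 0.25, edgeR adjusted p = 0.0210) and Cd48 by 0.44 (SE 0.15, edgeR adjusted p = 0.0491), and Cd84 differed by −0.47 (SE 0.12, edgeR adjusted p = 0.0157). The Cd48 call was lost in 6 of 10 fits that left out 1 library. B2m was higher by 0.57 (SE 0.11, edgeR adjusted p = 0.00488). Without WT DN 2, 16 of 83 genes of the lists were higher and 14 lower, while calls over all genes went from 3439 to 4392. In that fit 3 SLAM family genes were higher and 1 lower. Natural killer cell markers summed to 317 to 402 CPM in WT DN and 240.0 to 275 in young DN. DN stage markers summed to 1441 to 2632 CPM in WT DN and 3177 to 3679 in young DN, with 3 of 11 called lower. Neither sum overlapped between the groups. The sums of B cell, dendritic cell, macrophage, neutrophil, gamma delta T cell, DP stage, selection and single positive, and stress markers did overlap. The part of such cells in the differences was not tested. In DP cells of the same mice 1 of 74 genes was called, Inpp5d, the lipid phosphatase SHIP1 that SLAM receptors recruit, at −0.40 (SE 0.08, edgeR adjusted p = 0.0371), a call lost in 8 of 10 fits that left out 1 library.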

How the data were processed

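Bulk RNA-seq of 35 libraries of sorted mouse thymocytes was used. The authors deposited whole-number read counts per gene, not normalized. Per the submitters' processing notes, STAR 2.5.1 and Trim Galore 0.4 were used, and HTSeq 2.0.3, Subread, DESeq2 and bcl2fastq are listed beside the builds GRCm39 and mm10. Their roles and order are not stated. Which program counted and the strand setting are not given in the sources used here. Per the file headers the table also holds gene positions and lengths, with identifiers of the C57BL/6NJ annotation.

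Counts were tested with edgeR 4.0.16 (quasi-likelihood, TMM, R 4.3.3) on the groups compared, keeping genes by filterByExpr with a minimum count of 10 and a total of 15. P-values were adjusted over all genes tested (Benjamini-Hochberg) and called under 0.05. Log2 CPM used a prior count of 2. Alternatives were DESeq2 1.42.0, its size factors, no filter, 1 fit of all 35 libraries, the replicate number as a block, each library left out and 6 libraries treated as standing apart left out (aged DN 1, aged DN 5, aged DP 1, aged DP 5, WT DN 2, KO DP 2). Chi-square per degree of freedom between the counts of aged DP 1 and those of aged DP 2, 3 and 4 was 7.46 to 10.96. Among aged DP 2, 3 and 4 it was 6.37 to 10.88, so aged DP 1 did not stand apart by this measure. Upstream windows came from RefSeq tables of GRCm38.p6, which matched 4 of 4 members.

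The members, the lists and the libraries left out were chosen with earlier results of these data known. Named are the members in each comparison, the 3 genes most like each, up to 2 genes called per list and direction with the smallest adjusted p, and the partners Cd48, Ly9, Cd84, B2m, Lck and Zbtb16. Slamf7 in young mice was added after its values were seen, and 1 gene that the rule names is not reported here. Outside young DP against young DN not every gene that the rule names is printed, and those printed were picked with their values known. In aged DP against aged DN the replicate numbers paired the samples (correlation of deviations 0.133 to 0.288 in 5 of 5 pairs). Values with the block are printed there for the members and Ly9 only, and all other values and list counts are from fits without it. In no other comparison did every pair exceed 0.1. On data simulated for KO DP against WT DP over 13095 genes, 82% of 100 genes changed 1 log2 unit and 100% of 100 changed 2 log2 units were called, and 14 unchanged genes were called. The simulation gave every gene the same dispersion and held no library that stands apart. Changes as small as those of the members in KO DP were not simulated, so it does not say whether these would be found. No 2 libraries of a group had identical counts (0 of 70 pairs). No column held other samples.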

Additional observations from a re-analysis of the deposited data

Results flagged for a closer look

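Among 70 sets of 5 libraries (10 genes in 7 groups), 7 had a library far from the other 4, where chance gives about 1 in 20. The set of Zbtb16 in WT DP, with 0 counts in every library, could not be tested. Slamf1 was at 42.4 CPM in aged DN 5 against 11.7 in the next library, and at 20.3 CPM in WT DN 2 against 9.04. Ly9 was also high in WT DN 2, at 132 CPM against 87.9. Both libraries had the highest B cell marker sums among DN libraries. Fyn was at 497 CPM in aged DN 1 against 144, and Zbtb16 was at 134 CPM in the same library against 12.1. B2m was at 613 CPM in aged DP 5 against 261. Zbtb16 was at 0.14 CPM in KO DP 5, which rests on 2 counts, and at 0 in the other 4 KO DP libraries.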

How the results depend on the processing

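All 156 alternatives of the 10 called member comparisons kept direction and call. Over all 40 member comparisons, 668 of 712 alternatives gave the same result, 7 newly passed the threshold without a change of sign, 0 lost it and 37 changed sign. All 37 were of values not called as reported. Among the 37, Fyn in aged DP against aged DN passed with the opposite sign without aged DN 1 (0.29, edgeR adjusted p = 0.0293). It also did so without the libraries that stand apart (0.25, edgeR adjusted p = 0.0268). The causes were not tested.

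Counts of all genes called moved more. DESeq2 gave 605 for KO DP against WT DP (211 by edgeR), 326 for aged against young DP (123), 928 for aged against young DN (37), 403 for WT against young DP (77), 88 for the age by stage term (1) and 341 for the cohort by stage term (100). The fit over 35 libraries gave 30, 2160, 4, 21 and 25 for aged DP, aged DN, WT against young DP, age by stage and cohort by stage, and 1752 for WT against young DN (3439). The replicate block gave 61 for KO, 1 for aged DN, 8 for WT against young DP and 30 for cohort by stage. It changed no member call except Slamf6 in aged DP against aged DN. Outside that comparison at most 2 of 5 same-numbered pairs correlated over 0.1 and at most 3 of 5 correlated best with their own number. There the block also moved the adjusted p of B2m in KO to 0.0893, of Slamf7 in WT against young DN to 0.0545 and of Ly9 in cohort by stage to 0.102. With no filter the counts were 353 for aged DP and 149 for WT against young DP. Without libraries that stand apart they were 534 for KO, 738 for aged DN and 72 for age by stage. Leaving out 1 library gave 101 to 534 for KO, 58 to 136 for aged DP, 10 to 185 for aged DN, 23 to 98 for WT against young DP, 2102 to 4392 for WT against young DN, 1 to 7 for age by stage and 47 to 402 for cohort by stage.

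Members called were 1 in aged against young DN over 35 libraries (0 as reported) and 4 in aged DP against aged DN without the libraries that stand apart (2 as reported). Leaving out 1 library gave 2 to 4 for the latter and 0 to 1 in WT against young DN.

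Without libraries that stand apart the log2 difference turned to 0.25 for Fyn in aged DP against aged DN, 0.0034 for Fyn, 0.076 for Cd84 and −0.012 for Lck in KO, −0.28 for Slamf1 in WT against young DN, 0.038 for Slamf1 in age by stage, and −0.017 for Mr1 and 0.34 for Slamf1 in cohort by stage. Mr1 in aged against young DN was −0.027 in the fit over 35 libraries. Ranges that crossed 0 when 1 library was left out were −0.10 to 0.0034 for Fyn, −0.17 to 0.076 for Cd84 and −0.012 to 0.18 for Lck in KO, −0.013 to 0.078 for Slamf6 and −0.021 to 0.10 for Mr1 in aged DP, −0.097 to 0.47 for Slamf6, −0.096 to 0.19 for Mr1 and −0.10 to 1.00 for Slamf1 in aged DN, −0.51 to 0.29 for Fyn in aged DP against aged DN, −0.022 to 0.13 for Slamf1 in WT DP, −0.13 to 0.19 for Mr1 and −0.28 to 0.30 for Slamf1 in WT DN, −0.43 to 0.12 for Slamf6, −0.14 to 0.14 for Mr1 and −0.88 to 0.20 for Slamf1 in age by stage, and −0.11 to 0.23 for Mr1 and −0.26 to 0.34 for Slamf1 in cohort by stage.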
